A study of Rattus norvegicus with 8 samples.

Results

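Peroxisomal oxidation enzymes and acyl-CoA thioesterases were followed in rat liver on 8 dual-colour Agilent arrays through 9 genes: Acox2, Amacr, Ehhadh, Acaa1a, Acaa1b, Eci2, Acot1, Acot2 and Acot3. The members were the non-control probes whose accession in the array annotation carried 1 of these symbols, which gave 11 of 41012 probes and 9 of 13458 named genes. Amacr and Acaa1a had 2 probes each. A probe was tested where at least 4 of the 8 arrays had its spot well above background in one dye or the other, which all 11 member probes and 26964 probes in all fulfilled.

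The rats were male Zucker diabetic fatty rats labelled as 12 weeks old, either lean (fa/+) or obese (fa/fa, with a defective leptin receptor), and each genotype had 4 arrays. On every array, Cy3 carried liver RNA of vehicle-treated rats and Cy5 carried liver RNA of TU-treated rats of the same genotype. TU is testosterone undecanoate, an ester that releases testosterone slowly. The dose was 20 mg/kg, given subcutaneously in propylene glycol over 4 weeks, first every 3 days and then weekly for the last 2 weeks. Lean rats carry 1 fa allele, so no group lacked it. The arrays are labelled as biological replicates, but the sources used here do not say whether an RNA came from 1 animal. The p-values therefore measure the spread between arrays.

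Very long-chain and branched fatty acids, and the side chains of bile acid precursors, are shortened in peroxisomes by an oxidase, a bifunctional enzyme and a thiolase. ACOX2 is the oxidase for bile acid precursors, and AMACR is the racemase that turns them into the form ACOX2 accepts. EHHADH is a bifunctional enzyme, ACAA1A and ACAA1B are thiolases, and ECI2 is an isomerase that prepares unsaturated chains. Acyl-CoA thioesterases release the fatty acid from coenzyme A: ACOT1 in the cytosol, ACOT2 in mitochondria and ACOT3 in peroxisomes. In rodent liver many of these genes are known targets of the nuclear receptor PPAR alpha, which binds DR1 elements, direct repeats of AGGTCA with 1 base between them.

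The promoters of 5 members are shown, those of Acox2 and Amacr because they had the largest TU log ratios in lean rats, that of Eci2 because it held a match, and those of Acot1 and Acot2 because these genes are neighbours and were both higher in obese TU-treated rats. Each is 300 bases of the GRCr8 assembly from RefSeq, from 250 bases before to 50 bases after the gene's start, written 5′ to 3′ on the gene's strand, with matches to AGGTCA on either strand in capitals. They lie at chr15:19090705-19091004 (+) for Acox2, chr2:61673085-61673384 (+) for Amacr, chr17:30075516-30075815 (+) for Eci2, chr6:109367024-109367323 (+) for Acot1 and chr6:109342590-109342889 (+) for Acot2.
Acox2: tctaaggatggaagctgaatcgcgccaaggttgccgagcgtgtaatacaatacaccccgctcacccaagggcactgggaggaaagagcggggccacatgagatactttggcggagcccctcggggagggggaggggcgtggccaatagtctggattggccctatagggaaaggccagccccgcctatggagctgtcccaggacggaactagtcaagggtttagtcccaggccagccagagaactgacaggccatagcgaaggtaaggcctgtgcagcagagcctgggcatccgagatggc
Amacr: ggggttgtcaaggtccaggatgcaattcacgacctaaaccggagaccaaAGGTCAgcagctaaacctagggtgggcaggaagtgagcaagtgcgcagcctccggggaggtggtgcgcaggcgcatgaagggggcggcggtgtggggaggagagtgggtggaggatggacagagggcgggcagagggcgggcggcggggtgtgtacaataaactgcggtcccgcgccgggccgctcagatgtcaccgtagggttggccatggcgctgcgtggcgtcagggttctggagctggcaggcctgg
Eci2: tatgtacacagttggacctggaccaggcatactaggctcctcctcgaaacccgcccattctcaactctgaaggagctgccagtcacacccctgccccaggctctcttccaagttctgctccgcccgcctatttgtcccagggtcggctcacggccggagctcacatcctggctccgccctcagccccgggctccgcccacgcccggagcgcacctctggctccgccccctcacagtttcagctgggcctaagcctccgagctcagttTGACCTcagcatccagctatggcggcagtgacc
Acot1: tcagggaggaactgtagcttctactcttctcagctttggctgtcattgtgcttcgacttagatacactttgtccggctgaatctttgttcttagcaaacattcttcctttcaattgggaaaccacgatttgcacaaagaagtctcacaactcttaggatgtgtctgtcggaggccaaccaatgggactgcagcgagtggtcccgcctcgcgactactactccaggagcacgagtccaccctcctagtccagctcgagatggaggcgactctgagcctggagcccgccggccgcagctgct
Acot2: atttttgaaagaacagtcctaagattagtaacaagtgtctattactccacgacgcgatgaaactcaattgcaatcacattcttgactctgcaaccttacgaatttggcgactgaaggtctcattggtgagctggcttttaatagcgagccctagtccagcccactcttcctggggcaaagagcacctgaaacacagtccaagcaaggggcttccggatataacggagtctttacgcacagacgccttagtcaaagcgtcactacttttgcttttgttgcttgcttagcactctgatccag
The single capital stretch of Amacr lay at positions -201 to -196 on the + strand, and that of Eci2 at 18 to 23 on the - strand, counted from the gene's start. AGGTCA was found in 2 of the 9 member promoters and in 16.2% of the 33469 promoters of this length. The full DR1 element, AGGTCA on both sides of 1 free base, overlaps this motif by its build. It was found on neither strand of the 9 member promoters, and in 0.0538% of all promoters. At that share an exact match among 9 promoters would be rare, so its absence cannot tell whether PPAR alpha binds them. Inexact elements and bases outside these windows were not searched. In GRCr8, Acot2 and Acot1 are direct neighbours, and Acot4, Acot3 and Acot5 follow after Rpl23al8.

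Both obese over lean comparisons were made between slides. The lean arrays shared 1 slide and the obese arrays another, and the effects of slide and genotype cannot be told apart. Because Cy5 held TU on every array, a probe's dye bias and its TU response in 1 genotype cannot be told apart either, but the dye cancels where the genotypes are compared within a dye or in their TU log ratios. Between 58.4% and 69.1% of probes were well above background in Cy3 and 50.4% to 60.6% in Cy5. The log ratios were widest on obese replicate 2, with an SD of 0.46 against 0.11 to 0.25 on the other arrays.

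The spots of 2 members lay where nearby spots differed between arrays. Eci2 lay within a patch in the middle of the array that was dim on both replicate 1 arrays. Of the 26964 passing probes, 189 were over 1 log2 unit dimmer on both of these arrays than on each of the others, and 188 of the 189 lay in 1 block in the middle of the 532 rows and 85 columns, a block that held 1190 passing probes. Acot3 lay in row 531. Of the 36 passing probes with a mean log2 intensity above 8 in the last 3 rows, 34 were lower in obese than in lean arrays in both dyes, with a median log2 difference of -1.70 in Cy3 and -1.39 in Cy5. Around the other 9 member probes, the median obese minus lean difference of nearby bright probes was -0.16 to 0.22 in Cy3 and -0.13 to 0.61 in Cy5, with Acot1 at the upper end in both.

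**Figure D1:**
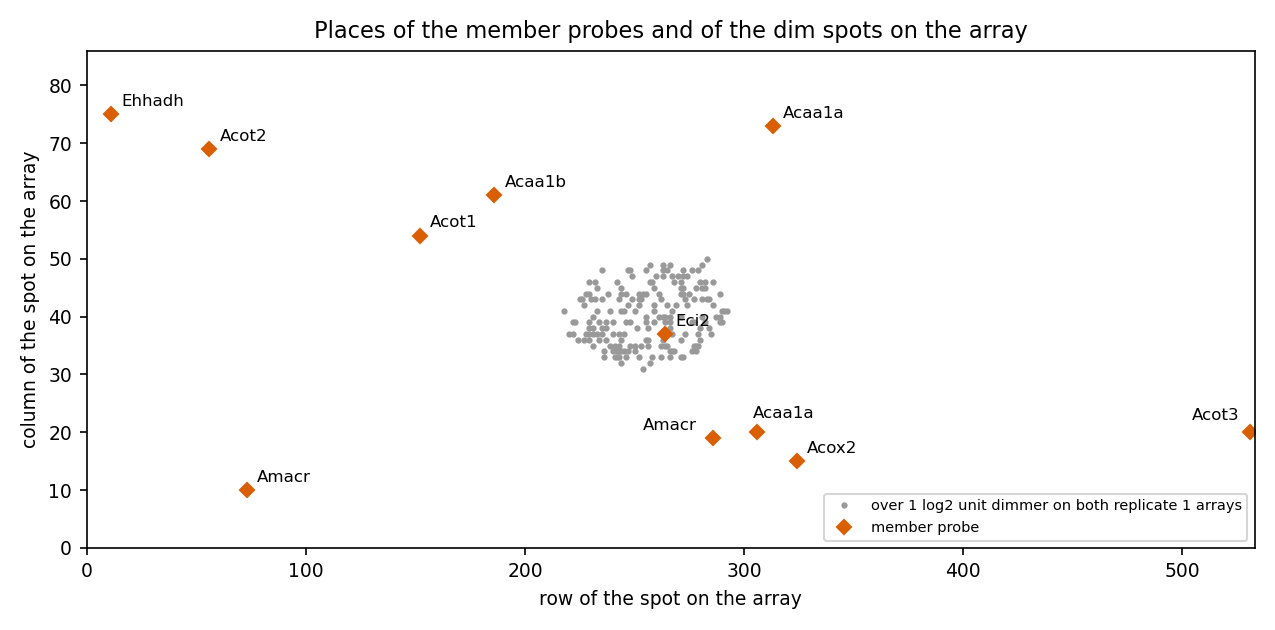
Row and column of each member probe (orange) on the array, with the 189 passing probes that were over 1 log2 unit dimmer on both replicate 1 arrays than on each other array (grey). Eci2 lies among the dim spots in the middle, and Acot3 lies in row 531 at the edge.

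The first comparison asked how the members responded to TU in lean rats. Acox2 fell and was the only 1 of the 11 probes called at an adjusted p under 0.05. Of all 26896 probes tested, 53 were called, or 0.197%. The log2 ratios of TU over vehicle for Acox2 were -1.59, -0.97, -1.07 and -1.01 on lean replicates 1 to 4. Acox2 was below 0 on 4 of 4 lean arrays, beside 18.5% of all probes with 4 lean values, and replicate 1 was the lowest. The mean was -1.16 ± 0.17 (SE, n = 4 arrays), 2.23-fold lower, with an adjusted p of 0.0455 by limma with Benjamini-Hochberg adjustment. The call was lost without any 1 of the lean arrays or without obese replicate 1 or 4, where the adjusted p was 0.0804 to 0.21 and the mean -1.22 to -1.02. It was kept in 10 of 21 alternatives and was also lost, among others, without the filter (adjusted p = 0.072), with a trended robust prior (0.306), with scaled ratios (0.477) and without both replicate 1 arrays (0.29). With the replicate number as a block it was lost as well (adjusted p = 0.0836).

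Amacr had the largest positive TU log ratios among the members in lean rats, on both probes, without passing the test. Its brighter probe (A_42_P460785) read 0.65, 1.40, 1.13 and 0.53 on lean replicates 1 to 4, and its dimmer probe (A_44_P409654) read 0.48, 1.22, 0.57 and 0.46. All 4 arrays were above 0 with either probe, beside 11.9% of all probes, and replicate 2 was the highest with both. The means were 0.93 ± 0.16 (adjusted p = 0.072 by limma) and 0.68 ± 0.13 (adjusted p = 0.0803). Both probes passed without obese replicate 2, which enters through the shared spread, with adjusted p of 0.013 and 0.0229. Eci2 also passed then (adjusted p = 0.0434), so that 4 member probes and 1199 of all probes were called.

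The other oxidation enzymes had smaller TU log ratios in lean rats. Eci2 read 0.31, 0.32, 0.35 and 0.44 on replicates 1 to 4, the tightest set among the members, with a mean of 0.35 ± 0.08 and an adjusted p of 0.107. On both replicate 1 arrays its spot was dim, and how far this moved the ratio was not tested.  Ehhadh read 0.45, 0.38, 0.10 and 0.38, above 0 on 4 of 4 arrays, with a mean of 0.33 ± 0.14 and an adjusted p of 0.323. The thiolases lay close to 0. Acaa1b had a mean of 0.07 ± 0.16, and the Acaa1a probes had means of 0.10 ± 0.13 (A_43_P11432, the brighter) and -0.20 ± 0.15 (A_44_P516745), with adjusted p from 0.602 to 0.89. The thioesterases Acot1 (0.23 ± 0.13), Acot2 (0.22 ± 0.15) and Acot3 (0.07 ± 0.11) were not called, with adjusted p from 0.45 to 0.826. Acot1 was above 0 on 4 of 4 arrays, Acot2 on 3 and Acot3 on 1.

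Over the 11 probes the median lean log ratio was 0.22, with 9 above 0. Over all probes tested the median was -0.02, with 42.3% above 0. Amacr and Acaa1a entered with 2 probes each, so the 11 are not independent. Some signs changed with the scaling. When each array was only centred on its median, the median of all probes moved to -0.21 and the split of calls from 33 higher and 20 lower to 312 higher and 6272 lower. Ehhadh, Eci2, Acaa1b, Acot2, Acot3 and the brighter Acaa1a probe then had negative lean means, from -0.44 to -0.16. Relative to the shifted median they ran from -0.23 to 0.04. Acox2 kept its sign and its call (-1.68, adjusted p = 0.0143), and both Amacr probes and Acot1 stayed above 0 (0.10 to 0.46).

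**Figure D2:**
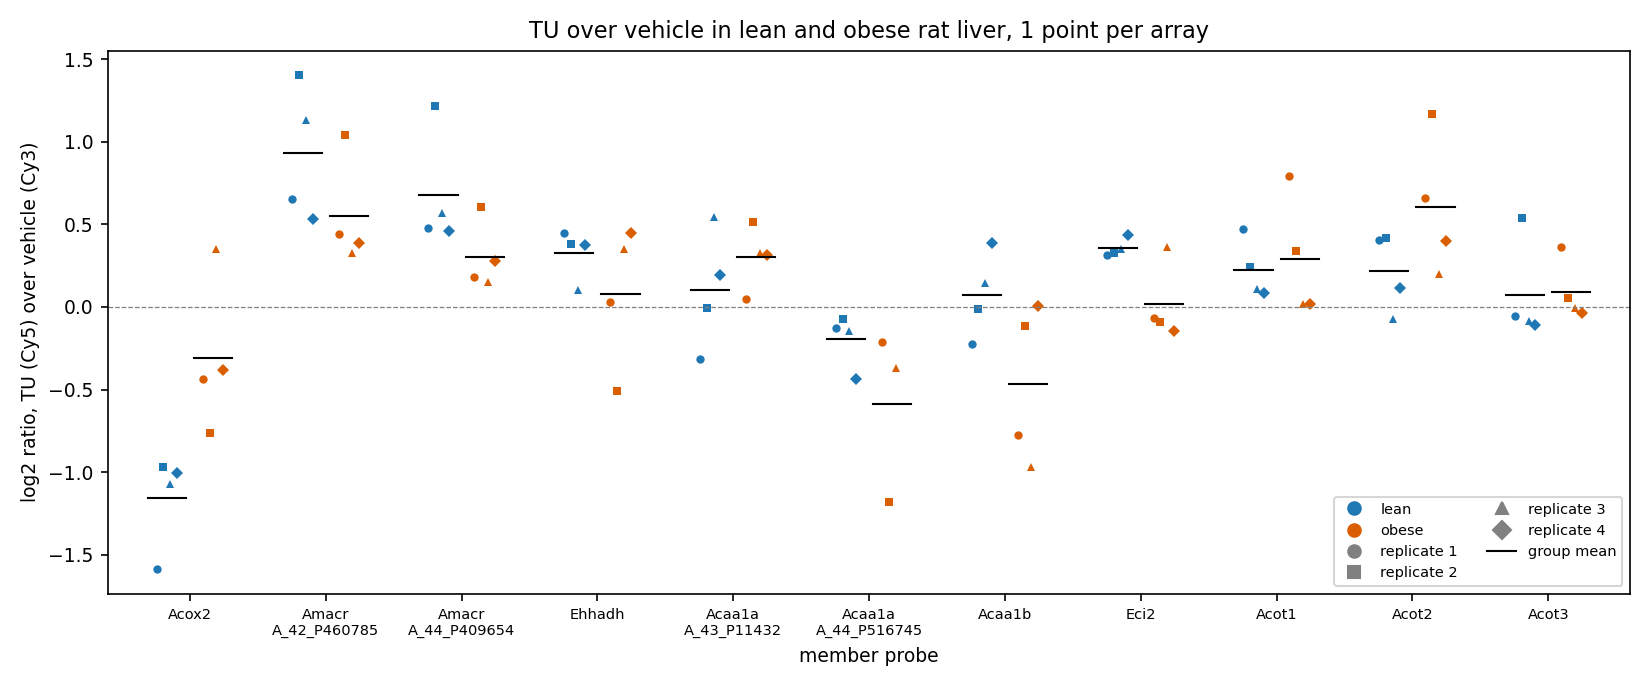
Log2 ratio of TU over vehicle on each array for the 11 member probes, in lean (blue) and obese (orange) rats, with the replicate as the marker shape and a black line at each group mean. Acox2 lies below -0.9 on the 4 lean arrays, and both Amacr probes lie above 0 on all 8 arrays.

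In obese rats no member probe was called for TU over vehicle by limma, and 7 of the 11 had an unadjusted p under 0.05. Of all 26962 probes 3 were called, or 0.0111%, and 3428, or 12.7%, had an unadjusted p under 0.05. Acot2 had the largest mean. Its log2 ratios were 0.66, 1.16, 0.20 and 0.40 on obese replicates 1 to 4, all above 0 and highest on replicate 2, with a mean of 0.61 ± 0.15 and an adjusted p of 0.298. Its neighbour Acot1 read 0.79, 0.34, 0.01 and 0.02, with a mean of 0.29 ± 0.13. Replicate 1 was the highest for Acot1, and replicates 3 and 4 lay next to 0.

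Both Amacr probes were again above 0 on 4 of 4 obese arrays, beside 12.6% of all probes with 4 obese values. The brighter read 0.44, 1.04, 0.33 and 0.39 (mean 0.55 ± 0.16) and the dimmer 0.18, 0.60, 0.15 and 0.28 (mean 0.30 ± 0.13), with adjusted p of 0.344 and 0.389. Acox2 read -0.43, -0.76, 0.35 and -0.38, with replicate 3 alone above 0, and its mean of -0.31 ± 0.17 was not called (adjusted p = 0.439). Acaa1b was split, at -0.78 and -0.97 on replicates 1 and 3 and -0.12 and 0.01 on replicates 2 and 4, with a mean of -0.47 ± 0.16. The 2 probes of Acaa1a disagreed in sign. The brighter read 0.05, 0.51, 0.33 and 0.31, whereas the dimmer read -0.21, -1.18 and -0.37 on replicates 1 to 3 and was left out on replicate 4, where its spot was marked as non-uniform. Their means were 0.30 ± 0.13 and -0.59 ± 0.17. Ehhadh (0.08 ± 0.14), Eci2 (0.02 ± 0.08) and Acot3 (0.09 ± 0.11) lay near 0 in the mean, with adjusted p from 0.698 to 0.942.

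The difference of the TU responses, obese minus lean, tests whether genotype altered the response. None of the 11 probes passed by limma, and 3 had an unadjusted p under 0.05. Over all 26894 probes 1 passed, or 0.00372%, and 2049, or 7.62%, had an unadjusted p under 0.05. The lean and obese log ratios of Acox2 did not overlap, since the highest lean value was -0.97 and the lowest obese value -0.76. How many of all probes lacked such overlap in their log ratios was not counted, so this cannot be read as a difference between the genotypes. For Acox2 the difference was 0.85 ± 0.23 log2 units, with an unadjusted p of 0.00586 and an adjusted p of 0.641 by limma. The other differences with an unadjusted p under 0.05 were those of Eci2 (-0.34 ± 0.11, adjusted p = 0.641), whose spot was not well above background in Cy5 on obese replicate 1, and Acaa1b (-0.54 ± 0.23, adjusted p = 0.653). For each of these 2 genes lean and obese arrays overlapped. With median centring the median of all probes moved to 0.21, and the differences of Ehhadh, Eci2, Acaa1b, both Amacr probes and the dimmer Acaa1a probe turned positive, at 0.37 to 0.64. That of Acox2 stayed positive (1.66). So the fall of Acox2 called in lean rats was not shown to differ from the response in obese rats.

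In vehicle-treated rats (Cy3), 4 of the 11 probes were called for obese over lean, beside 15% of all 26894 probes. Of the 4, 3 were higher and 1 lower, beside 7.96% and 7.05% of all probes. In Cy3 the obese arrays lay all above the lean arrays for 14.4% of 26565 probes, and all below for 12%. The thiolase Acaa1b, the dimmer Acaa1a probe and the thioesterase Acot1 were called higher in obese rats, and Acot3 was called lower. The brighter Acaa1a probe was not called. Because the tissue was taken whole, fewer cells of a type and less RNA per cell cannot be told apart. The same Cy3 and Cy5 intensities also enter the TU log ratios, so the comparisons are not independent of each other.

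Acaa1b had the largest difference. Its log2 Cy3 intensities were 12.83, 13.11, 12.87 and 12.65 on lean replicates 1 to 4 and 14.63, 14.19, 14.52 and 14.44 on obese replicates 1 to 4. Each obese array was above each lean array by over 1 log2 unit. The difference was 1.58 ± 0.12, a 3.00-fold higher level in obese rats (adjusted p = 0.000586 by limma), and it was called in each of the 20 alternatives, with values from 1.13 to 1.67. The dimmer Acaa1a probe read 14.12, 14.20, 14.05 and 14.24 in lean rats and 14.93, 15.66 and 14.67 on obese replicates 1 to 3. These arrays did not overlap, and the difference of 0.93 ± 0.22 had an adjusted p of 0.0381. That call was lost without any 1 of the lean arrays, with adjusted p from 0.0921 to 0.105, without the filter (0.0527), and with median centring before Aquantile (0.42, adjusted p = 0.205). It was also lost with the replicate number as a block (adjusted p = 0.0766) and without both replicate 1 arrays (0.11). The brighter Acaa1a probe differed by 0.26 ± 0.10 (adjusted p = 0.11), and passed without obese replicate 2 (0.32, adjusted p = 0.0394). Acaa1a and Acaa1b are close paralogs, and how far a probe of one also bound RNA of the other was not tested.

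Of the thioesterases, Acot1 had log2 Cy3 intensities of 6.99, 7.04, 7.08 and 7.16 in lean and 7.25, 7.52, 7.70 and 7.48 in obese rats. The groups did not overlap, and the difference was 0.42 ± 0.10, or 1.34-fold (adjusted p = 0.0268 by limma). Raw Cy3 signals of Acot1 were low, at 57 to 75.5 over backgrounds of 20 to 28 on the lean arrays. Across the 20 alternatives the Cy3 difference of Acot1 ran from 0.34 to 1.06. The 7 bright probes around its spot had a median difference of 0.22 in Cy3. Without any 1 of the lean arrays or without obese replicate 4, the adjusted p of Acot1 was 0.0567 to 0.0826. With the replicate number as a block it was 0.0558. Acot2 read 10.44, 10.34, 10.32 and 10.31 in lean and 11.07, 10.26, 11 and 11.11 in obese rats, so that obese replicate 2 was below all lean arrays and the other 3 above them. Its difference of 0.51 ± 0.18 missed the threshold (adjusted p = 0.104 by limma) with all arrays and passed without obese replicate 2 (0.70, adjusted p = 0.000968). How far a probe of Acot1, Acot2 or Acot3 also bound RNA of another of these genes was not tested.

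Acot3 read 8.08, 7.98, 8.12 and 8.12 in lean and 7.22, 7.72, 7.24 and 7.39 in obese rats, with all obese arrays below all lean arrays. The difference was -0.68 ± 0.11 (adjusted p = 0.00922). Raw Cy3 signals of Acot3 were low, at 61 to 131 over backgrounds of 17 to 18 on the obese arrays and 172.5 to 221 on the lean arrays. As described above, its spot lay in row 531, where 34 of 36 bright probes were lower in obese arrays in both dyes. The 5 bright probes next to it had a median difference of -1.70 in Cy3 and -1.40 in Cy5, and all 5 were lower in both dyes. The part of the spot's place in the Acot3 difference was not tested. With the scanner software's processed signals its adjusted p was 0.0647, and with the replicate number as a block it was 0.0512.

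Acox2, Amacr, Ehhadh and Eci2 were not called in vehicle-treated rats. Acox2 read 12.23, 12.18, 11.86 and 11.89 in lean and 11.99, 12.90, 12.12 and 12.92 in obese rats. Obese replicates 1 and 3 lay within the lean range, and the difference was 0.44 ± 0.24 (adjusted p = 0.251). Amacr was lower by -0.50 ± 0.24 and -0.65 ± 0.26 on its brighter and dimmer probe (adjusted p = 0.192 and 0.13), and the dimmer probe's groups did not overlap. Ehhadh differed by 0.38 ± 0.16 (adjusted p = 0.155), with obese replicate 2 the highest array at 11.53. Eci2 could hardly be compared, since its log2 Cy3 intensity was 7.37 on lean replicate 1 and 6.74 on obese replicate 1, inside the dim patch, against 10.98 to 12.84 on the other arrays. The difference of -0.48 had an SE of 1.54, and without both replicate 1 arrays, an alternative chosen after these values were seen, it was -0.43 (adjusted p = 0.527).

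**Figure D3:**
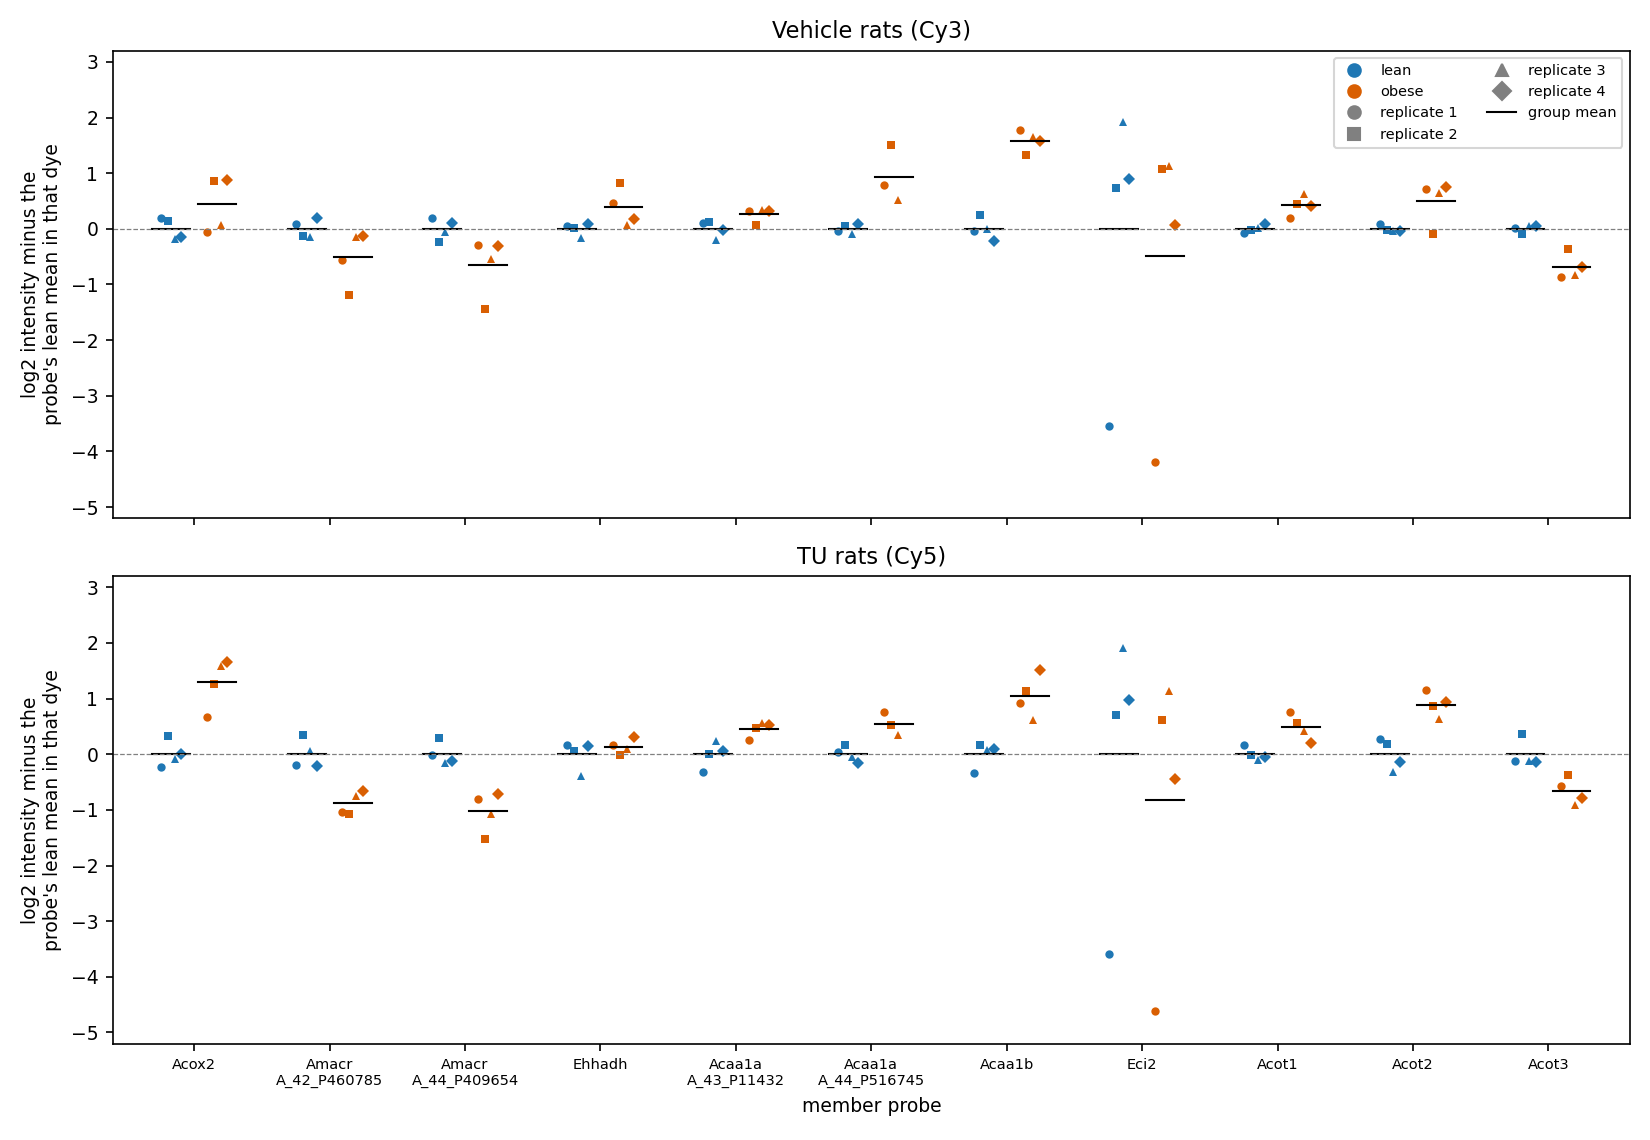
Log2 intensity on each array minus the probe's lean mean in the same dye, for vehicle-treated rats (Cy3, upper panel) and TU-treated rats (Cy5, lower panel), lean in blue and obese in orange, with the replicate as the marker shape and a black line at each group mean. Acaa1b lies above the lean arrays on all obese arrays in both panels, Acox2 does so in the lower panel, and Eci2 is far below on both replicate 1 arrays.

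In TU-treated rats (Cy5), 9 of the 11 probes were called for obese over lean, beside 20.2% of all 26894 probes. Of the 9, 6 were higher and 3 lower, beside 11.7% and 8.5% of all probes. In Cy5 the obese arrays lay all above the lean arrays for 15.8% of 26565 probes, and all below for 11.2%. Higher in obese rats were Acox2, Acaa1b, both Acaa1a probes, Acot1 and Acot2, and lower were both Amacr probes and Acot3. Leaving aside Eci2 in the dim patch and Acot3 at the edge, a choice made after their values were seen, 9 probes remained, of which 6 were called higher and 2 lower in Cy5, and 3 higher and 0 lower in Cy3. The higher calls in both dyes include Acot1, whose nearby probes were also higher in obese arrays in the median.

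Acox2 had the largest difference in Cy5. Its log2 Cy5 intensities were 10.65, 11.21, 10.79 and 10.89 in lean and 11.56, 12.14, 12.47 and 12.53 in obese rats. All obese arrays lay above all lean arrays, with obese replicate 1 the closest to them. The difference was 1.29 ± 0.22, or 2.44-fold (adjusted p = 0.00672 by limma), and it was called in each of the 20 alternatives, with values from 1.10 to 1.69.

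Amacr went the other way. Its brighter probe read 15.20, 15.74, 15.44 and 15.19 in lean and 14.35, 14.31, 14.65 and 14.73 in obese rats. The groups did not overlap on either probe, and the differences were -0.88 ± 0.15 (adjusted p = 0.00635) and -1.02 ± 0.19 (adjusted p = 0.00814), 1.84-fold and 2.03-fold lower in obese rats. In TU-treated rats Amacr and Acox2 thus differed between the genotypes in opposite directions. Both Amacr calls were lost with median centring before Aquantile, at -0.45 and -0.63 (adjusted p = 0.141 and 0.0762).

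The thiolases were higher in obese TU-treated rats as well. Acaa1b read 12.60, 13.10, 13.01 and 13.03 in lean and 13.86, 14.08, 13.55 and 14.45 in obese rats, without overlap, a difference of 1.05 ± 0.20, or 2.07-fold (adjusted p = 0.00908). This call was also kept in each of the 20 alternatives (lowest value 0.85). The Acaa1a probes differed by 0.46 ± 0.12 and 0.54 ± 0.12 (adjusted p = 0.0359 and 0.0221), with no overlap between the groups. The brighter probe was no longer called when 1 of lean replicates 1, 2 and 4 or of obese replicates 2, 3 and 4 was left out (adjusted p = 0.0593 to 0.0864). For the dimmer probe this held for lean replicates 1, 3 and 4 and obese replicate 2 (adjusted p = 0.0553 to 0.0605).

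Acot2 read 10.85, 10.75, 10.25 and 10.43 in lean and 11.73, 11.43, 11.20 and 11.50 in obese TU-treated rats. The groups did not overlap, the difference was 0.89 ± 0.16, or 1.86-fold (adjusted p = 0.00761), and it was called in each of the 20 alternatives. Acot1 read 7.46, 7.28, 7.19 and 7.25 in lean and 8.05, 7.85, 7.71 and 7.5 in obese rats, with obese replicate 4 just above lean replicate 1. Its difference was 0.48 ± 0.12 (adjusted p = 0.0262 by limma), beside a larger median of 0.61 for the 7 bright probes around its spot. The part of the spot's place was not tested. Raw Cy5 signals of Acot1 were low too, at 84 to 95 over backgrounds of 42.5 to 48 on the lean arrays. The call was lost, with adjusted p from 0.05 to 0.0744 when 1 of lean replicates 2, 3 and 4 or of obese replicates 2 and 3 was left out, or with the scanner software's processed signals.

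Raw Cy5 signals of Acot3 were low on the obese arrays, at 94 to 203 over backgrounds of 40 to 44. Acot3 was lower by -0.66 ± 0.15 (adjusted p = 0.0203) beside a median of -1.40 for the 5 bright probes around its spot. Its adjusted p was 0.0515 without obese replicate 4, 0.1 with processed signals and 0.106 with median centring before Aquantile. Ehhadh (0.14 ± 0.13, adjusted p = 0.511) and Eci2 (-0.82 ± 1.55, adjusted p = 0.752) were not called. Eci2 read 7.68 on lean replicate 1 and 6.67 on obese replicate 1, where its spot was not well above background in Cy5, against 10.84 to 13.19 elsewhere. With the scanner software's processed signals Ehhadh was called in both dyes, at 1.17 in Cy3 (adjusted p = 0.00487) and 0.91 in Cy5 (adjusted p = 0.00644).

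Another scaling moved the balance of calls over all probes. Obese over lean had 2142 higher and 1895 lower in Cy3 and 3158 higher and 2287 lower in Cy5. With median centring before Aquantile the splits were 835 and 2635 in Cy3 and 5605 and 1192 in Cy5. Under that scaling the brighter Acaa1a probe turned from 0.26 to -0.24 in Cy3, and the signs of all other member probes in both dyes were kept. Over the 11 probes the median difference was 0.38 in Cy3 and 0.46 in Cy5, beside 0.02 over all probes in either dye.

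**Figure D4:**
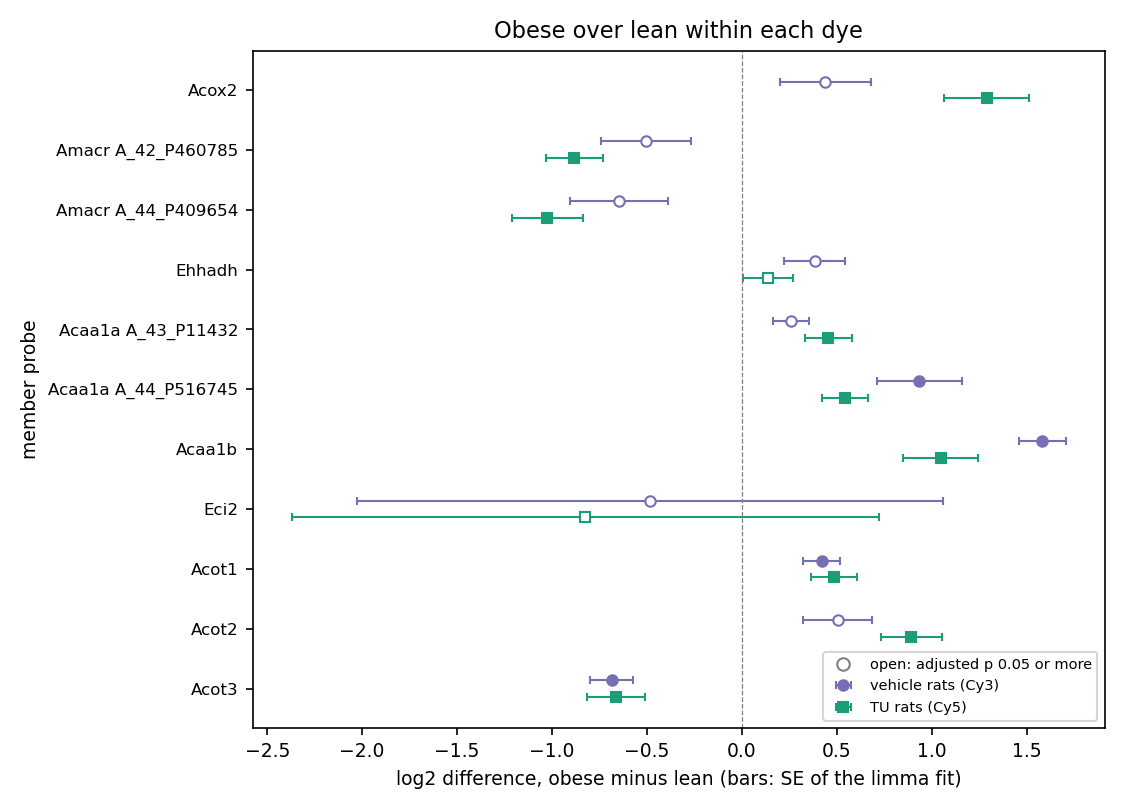
Log2 difference of obese minus lean for each member probe, in vehicle-treated rats (Cy3, circles) and TU-treated rats (Cy5, squares), with bars of 1 SE of the limma fit and filled symbols where the adjusted p was under 0.05. Acaa1b is the highest in Cy3 and Acox2 in Cy5, both Amacr probes are below 0 in both dyes, and Eci2 has the widest bars.

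Of the other genes of peroxisomal oxidation, 21 of the 24 listed were measured. None was called for TU in lean or obese rats or for the difference of the responses, and their medians were 0.09, 0.02 and -0.12. In vehicle-treated rats 5 were higher and 2 lower in obese rats: Ech1 (1.23 ± 0.14), a dienoyl-CoA isomerase; Ephx2 (0.98 ± 0.18), an epoxide hydrolase; Mlycd (0.88 ± 0.21), malonyl-CoA decarboxylase; Nudt19 (0.75 ± 0.09), a coenzyme A hydrolase; and Abcd3 (0.65 ± 0.13), a transporter of acyl-CoA into peroxisomes, were higher. Hacl1 (-1.31 ± 0.32), the lyase of alpha-oxidation, was lower. Pecr, an enoyl-CoA reductase, was the other lower call, but it rested on 1 usable obese array whose spot, in the outermost column, read 32 against 11564 to 16978 on the lean arrays, and the spots of the other 3 obese arrays, at 1473 to 2541, were left out as non-uniform. In TU-treated rats Abcd3 (0.65), Mlycd (0.64) and Nudt19 (0.54) were called again, with Crot (0.68 ± 0.19), which makes carnitine esters for export, and Tysnd1 (0.58 ± 0.16), a protease of peroxisomal enzymes. Hacl1 (-1.27) and Pecr were again the 2 lower calls. Beside the call counts of this and the following lists, 7.96% of all probes were called higher and 7.05% lower in obese rats in Cy3. In Cy5 these shares were 11.7% and 8.5%.

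Among 9 measured other thioesterases, Acot5 alone was called in vehicle-treated rats (0.21 ± 0.06, adjusted p = 0.0485) and none in TU-treated rats or for TU. Of 18 genes of peroxisome biogenesis, 5 were higher and 1 lower in vehicle-treated obese rats, with Pxmp4 (1.09 ± 0.20), a membrane protein, the highest and Pex3 (-1.55 ± 0.31), which inserts membrane proteins, the lowest. In TU-treated rats 5 were higher, Pex7 (0.69 ± 0.14), an import receptor, among them, and 2 were lower, Pex3 (-1.53 ± 0.31) and Pex19 (-0.71 ± 0.17).

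Of 17 genes of mitochondrial beta-oxidation, none was called for TU. In vehicle-treated rats 4 were higher and 1 lower in obese rats. Cpt1a (1.53 ± 0.34), the entry step of fatty acids into mitochondria, Eci1 (1.42 ± 0.12), Hadhb (1.40 ± 0.13) and Hadha (0.75 ± 0.14) were higher, and Acadm (-0.63 ± 0.12), a medium-chain dehydrogenase, was lower. In TU-treated rats 5 were higher, with Hadhb (1.41 ± 0.11), Eci1 (1.36 ± 0.18) and Cpt2 (0.94 ± 0.21) the largest, and Acadm was again lower (-0.68 ± 0.15). The list of Ppara and genes inducible through it, which shares genes such as Cpt1a, Acadm and Pex11a with the lists above, had 16 measured genes. In vehicle-treated rats 5 were higher, led by Fgf21 (2.93 ± 0.47), a hormone of fasting liver, with Vnn1 (1.47 ± 0.36), a pantetheinase, among them, and 1, Acadm, was lower. In TU-treated rats 3 were higher, Fgf21 (2.21 ± 0.34) and Vnn1 (1.39 ± 0.22) among them, and Acadm was again the 1 lower call. None of the 16 was called for TU. A gene of this list had its spot in the dim patch described above.

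The list of the bile acid side chain had 12 measured genes, Acox2 and Amacr among them. Acox2 was its only call for TU in lean rats. In TU-treated rats 3 were higher in obese rats, Acox2, Abcd3 and Cyp7b1 (0.53 ± 0.13), a hydroxylase of oxysterols, and 2 were lower, Amacr and Slc27a5 (-0.47 ± 0.14), which activates bile acids. In vehicle-treated rats Abcd3 was the only call of this list. The medians of the 6 lists in TU-treated rats ran from 0.06 to 0.31, beside 0.02 over all probes.

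The tissue label was checked against markers. All 9 hepatocyte markers were measured, and their summed normalized intensity was 713300 to 835400 in Cy3 and 972400 to 1196000 in Cy5 on lean arrays, and 725800 to 998500 and 723200 to 1065000 on obese arrays. The hepatocyte sums were higher in Cy5 than in Cy3 on the lean arrays, where dye and TU cannot be told apart. Among the hepatocyte markers Ambp was called for TU in lean rats (0.76 ± 0.10, adjusted p = 0.0347 by limma). The 9 macrophage markers measured of 10 summed to 38910 to 44490 in Cy5 on lean and 31910 to 36990 on obese arrays. In Cy3 these sums overlapped, at 41590 to 57050 on lean and 30270 to 51610 on obese arrays. For obese over lean in Cy5, 5 of the 9 markers were above 0, with 1 called higher and 2 lower. The 6 stellate cell markers measured of 7 summed to 6122 to 6693 on lean and 8045 to 15980 on obese arrays in Cy5. Their sums overlapped in Cy3, at 7427 to 8841 on lean and 7695 to 11390 on obese arrays. In Cy5, 3 of the 6 were called higher in obese rats and 1 lower. The single adipocyte marker measured of 4, Cfd, lay at 3577 to 4237 on lean and 1950 to 2529 on obese arrays in Cy3. The defining markers Adipoq, Lep, Umod, Nphs1, Prss1, Cpa1, Cd3e and Cftr were among those that did not pass the filter. The 2 erythroid markers measured of 4, Alas2 and Hbb, had a median TU log ratio of 0.89 in lean and -0.49 in obese rats and were not called. The part of these markers in the members' differences was not tested.

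Across the 16 channel values of the 8 arrays, which share spots and slides, the named genes most like Acox2 were Mrfap1 (Pearson r = 0.919), Ltn1 (r = 0.917) and Spcs1 (r = 0.89). Those most like Ehhadh were Tmem176a (r = 0.899), Alas2 (r = 0.846) and Fancc (r = 0.839). Those most like Acot1, whose raw signals were low, were Fabp4 (r = 0.933), Foxa1 (r = 0.893) and Eci1 (r = 0.89). These are descriptions of ranked correlations, without a test.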

How the data were processed

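Members and gene lists were chosen with earlier results of these data known. Per the file headers, the scans were read by Agilent Feature Extraction (version 10.7.3.1). The deposited files give, for every spot, median intensities of signal and background in both dyes. They also give processed intensities and their deposited log10 ratio of red to green, and flags. The authors' value table of the series holds log2 ratios made by steps that no source here records. Set against the log10 ratio of the same array they had slopes of 3.33 to 3.38 and medians of 0.0462 to 0.14, so they too ran as TU over vehicle, and they served as an alternative. Of the value columns, 0 lacked a sample. For the member values that changed sign with the authors' ratios, the processed intensities gave the same values. These alternatives are therefore not independent of each other.

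Intensities of 45018 spots per array (41012 probes) were corrected with normexp (offset 50) and normalized by loess within arrays in limma 3.58.1 (R 4.3.3, with the package data.table in version 1.17.8). The medians stand in for mean signals, which these files lack. Spots of controls and those flagged non-uniform did not enter. Per-channel fits used Aquantile. Annotation named 16815 probes in its newer version and 195 in the older alone, and 24002 stayed unnamed. Each probe was tested with lmFit and eBayes on all 8 arrays, with Benjamini-Hochberg adjustment at 0.05 over all passing probes. The fits were also run on simulated data with planted changes and independent normal noise. These data held no effects of slide, dye or place on the array, so they cannot speak to such effects.

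All member probes are given. Of the other lists, genes passing at 0.05 or with the 2 largest differences could be named, through the brightest probe, and some are not reported here. Replicate numbers are positions on the slide. Deviations of arrays with the same number correlated at 0.614, 0.168, 0.445 and 0.253 in Cy5, so by the rule that each exceeds 0.1 the numbers pair the arrays there, and not in Cy3 or the log ratios. In Cy3 replicates 1 and 3 correlated at 0.617 and 0.405, and replicates 2 and 4 at 0.0702 and -0.0566. Background correction, filter, scaling, block, array weights and arrays left out were varied. The number of arrays limits the precision.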

Additional observations from a re-analysis of the deposited data

Results flagged for a closer look

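In 8 of 63 sets of 4 arrays tested, 1 array stood apart from the other 3 by more than Dixon's 95% critical value for 4 samples, which chance gives in about 1 in 20 sets. For Acox2, the TU log ratio of lean replicate 1 was -1.585, against -1.073 to -0.9702 on the other lean arrays. For Amacr, the brighter probe had a TU log ratio of 1.043 on obese replicate 2, against 0.3271 to 0.4401, and the dimmer probe one of 1.218 on lean replicate 2, against 0.4578 to 0.5659. Eci2 had a TU log ratio of 0.3648 on obese replicate 3, against -0.1451 to -0.0687. Acot3 had a TU log ratio of 0.539 on lean replicate 2, against -0.1098 to -0.0535, and its log2 Cy5 intensity there was 8.515, against 8.012 to 8.035. In Cy3, obese replicate 2 had a log2 intensity of 10.26 for Acot2, against 11 to 11.11, and of 16.17 for the brighter Acaa1a probe, against 16.43 to 16.45. Of these 8 values, 3 were from obese replicate 2, the array with the widest log ratios.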

How the results depend on the processing

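Over 24 alternative settings, 997 of 1110 member values kept their direction and their side of the threshold, 50 lost a call, 15 gained one and 48 changed sign. Causes were not tested.

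For TU in lean rats, 53 of all probes were called. The count was 327 without background correction, 276 with the scanner software's processed signals, 278 with the authors' log ratios, 860 with array weights, 6584 with median centring, 314 with lean arrays alone, 4 without both arrays at slide position 1 (chosen after seeing the data), 0 with a trended robust prior, 0 with scaled ratios, and 1 to 1199 with 1 array left out. Members called went from 1 to 3 without background correction, with array weights and with lean arrays alone, to 0 without a filter, with the trended robust prior, with scaled ratios and without both position 1 arrays, and to 0 to 4 with 1 array left out. For TU in obese rats, 3 probes became 23, 209, 203 and 179 under no background correction, processed signals, the authors' log ratios and array weights, 0 under median centring, scaled ratios, the trended prior, obese arrays alone and without both position 1 arrays, and 0 to 2 with 1 array left out. For the difference of the responses, 1 probe became 0 under no background correction, the trended prior, median centring, scaled ratios and without both position 1 arrays, 2 under processed signals and the authors' log ratios, 14 under array weights, and 0 to 3 with 1 array left out. Obese over lean counts of 4037 in Cy3 and 5445 in Cy5 became 6509 and 8502 with processed signals and 6419 and 9397 with array weights, and 1699 to 5635 and 3437 to 8446 with 1 array left out. Members called were then 2 to 6 in Cy3 and 6 to 9 in Cy5.

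With the replicate number as a block, 23 probes were called for TU in lean rats, 0 in obese rats, 0 for their difference, 1640 in Cy3 and 5163 in Cy5, and member calls were 0, 0, 0, 1 and 9. The block removed the calls of Acox2 in lean rats (adjusted p = 0.0836) and, in Cy3, of Acot1 (0.0558), Acot3 (0.0512) and the dimmer Acaa1a probe (0.0766). In the log ratios and in Cy3 not every replicate number exceeded 0.1, though replicates 1 and 3 did so in Cy3. The same-number correlations were 0.059, -0.104, 0.156 and -0.0134 for log ratios and 0.617, 0.0702, 0.405 and -0.0566 in Cy3. In Cy5, where the numbers pair the arrays, the block changed no member's call.

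Among values that changed sign, none was called on both sides. With median centring, lean TU values became -0.1999 for Ehhadh, -0.3086 for Acot2, -0.4367 for Acaa1b, -0.1622 for Eci2, -0.3376 for the brighter Acaa1a probe and -0.2923 for Acot3. The differences of the responses became 0.4937 for Ehhadh, 0.4076 and 0.4871 for the dimmer and brighter Amacr probe, 0.3724 for Acaa1b, 0.4185 for Eci2 and 0.6351 for the dimmer Acaa1a probe, and with Aquantile the brighter Acaa1a probe was -0.2369 in Cy3. With scaled ratios, Acox2 in obese rats was 0.5276, and the differences were 0.6006 for Ehhadh, 0.4156 for Eci2 and 0.05353 for the brighter Amacr probe. With processed signals and with the authors' log ratios, the brighter Acaa1a probe was -0.07716 in lean rats, Eci2 was -0.08436 in obese rats, and the differences were -0.2299 for Acot1 and -0.04012 for Acot3. Without background correction, Eci2 was -0.01923 in obese rats, and the differences were -0.03279 for Acot1 and -0.02608 for Acot3. With array weights, the differences were 0.08134 for Ehhadh, -0.09148 for Acot1 and -0.01526 for Acot3, and Eci2 was 0.06506 in Cy5. Without both position 1 arrays, the differences were -0.02183 for Acot1 and -0.1114 for Acot3. With 1 array left out, lean TU values ran from -0.03267 to 0.1704 for Acaa1b, from -0.04264 to 0.2435 for the brighter Acaa1a probe and from -0.08299 to 0.1333 for Acot3. Obese TU values ran from -0.04205 to 0.2781 for Ehhadh and from -0.1014 to 0.06851 for Eci2, and differences from -0.1036 to 0.1558 for Acot1 and from -0.0694 to 0.1761 for Acot3. Eci2 ran from -1.668 (without lean replicate 1) to 0.7498 (without obese replicate 1) in Cy3 and, without the same arrays, from -2.022 to 0.4379 in Cy5.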
